A study of Mus musculus with 4 samples.

Results

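The 10 genes described here encode subunits of the nucleosome remodelling and deacetylase complex, NuRD: Chd4, Hdac1, Hdac2, Mbd2, Mbd3, Mta1, Mta2, Mta3, Gatad2a and Gatad2b. They were chosen by name from the 21774 protein-coding genes with a RefSeq span on the assembled mouse chromosomes, and the rule for them uses no measured value, although the list was drawn up with earlier results of these data known. A peak was assigned to a gene when at least 1 bp of it lay in the span of that gene extended by 5 kb on either side. The peaks come from ChIP-seq, in which an antibody pulls down chromatin and the bound DNA is sequenced; the cells were mouse embryonic stem cells, and their strain was 129S4/SvJae. All 4 libraries, 2 with a rabbit polyclonal antibody raised against H1foo and 2 with the mouse monoclonal antibody AE4, used for somatic linker histones, were made from cells that overexpress a GFP fusion of H1foo. Cells without this overexpression were not analysed here, so the peaks describe a state with H1foo in excess. The data hold 1 peak list per antibody and no value per library, so there is no replicate error, no test between libraries and no p-value for any difference below. Read depth is unknown, and an interval or a count of peaks covers only what these 2 lists hold. Peak lists do not measure expression, so the cell type was not checked against its markers.

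NuRD removes acetyl groups from histone tails and moves nucleosomes with the energy of ATP. It is known in embryonic stem cells for lowering the transcription of pluripotency genes so that the cells can leave self-renewal. H1foo, the linker histone of the oocyte, and the somatic H1 variants bind the nucleosome at the DNA that enters and leaves it, so the comparison asks where along genes of a nucleosome-modifying complex the peaks of each antibody lie. The sources used here do not say whether H1foo is itself a target of AE4, and an overlap of peaks is not read as binding of both proteins. A peak at a gene says nothing about the expression of that gene.

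Peaks of both antibodies were present at 9 of the 10 genes, and Hdac2 had none of either. Among all protein-coding genes, 62.6% had an H1foo peak in the same kind of window, 51.0% had an AE4 peak, 46.8% had both and 33.2% had neither. Member windows were longer, with a median of 46.8 kb against 27.2 kb, and a longer window has more room for a peak. Genes of similar length are those with a window between 0.5 and 2 times as long as that of a member. Of these, 25.6% (for Mta3) to 43.8% (for Mbd3) had no H1foo peak. For AE4 the shares without a peak were 33.2% to 57.1%. The number of peaks differed widely among the members. There were 109 H1foo and 62 AE4 peaks in all, and Mta1, Mta3 and Gatad2a together held 78 H1foo peaks (71.6%) and 53 AE4 peaks (85.5%) on 47.3% of the summed window length of 583.1 kb. The remaining 7 genes had 31 H1foo and 9 AE4 peaks. Those 3 genes were singled out after their counts were seen.

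**Figure D1:**
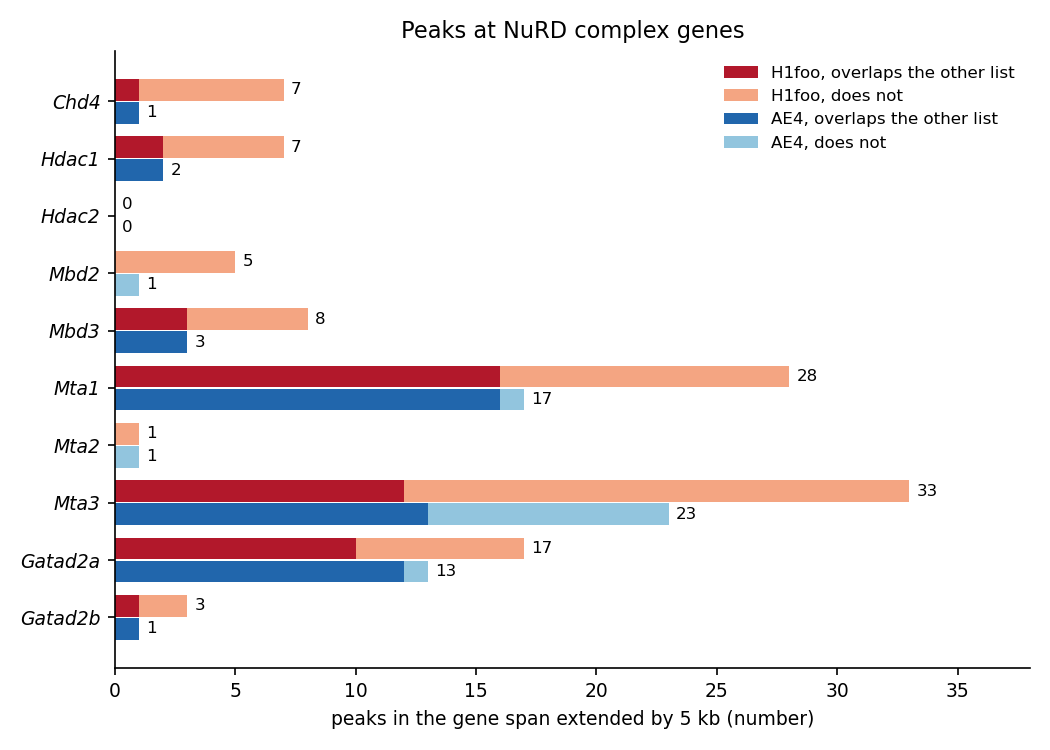
Horizontal bars give the number of H1foo peaks (upper bar, red) and AE4 peaks (lower bar, blue) in the span of each gene extended by 5 kb; the dark part of a bar is the peaks that overlap a peak of the other list. Mta3 has the longest bars with 33 H1foo and 23 AE4 peaks, and Hdac2 has 0 and 0.

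Windows ranged in length from 17.0 kb at Mbd3 to 127.6 kb at Mta3, and density per 100 kb of window takes this into account only in part. The median density over the 10 genes was 16.4 H1foo and 5.19 AE4 peaks per 100 kb. Over all protein-coding genes the medians were 3.88 and 0.403. The order by H1foo density was Mta1 (57.2 per 100 kb), Mbd3 (47.1), Mta3 (25.9), Hdac1 (19.2), Gatad2a (17.1), Chd4 (15.7), Mbd2 (7.05), Mta2 (4.91), Gatad2b (3.74) and Hdac2 (0). By AE4 density Mta1 (34.7 per 100 kb) again came first, followed by Mta3 (18.0), Mbd3 (17.7) and Gatad2a (13.1), and the other 6 lay at 5.47 or lower. With no replicate values, it cannot be said which neighbours in these orders differ. The position of a member among all genes ran from 0% of genes with a lower density at Hdac2 to 98.3% at Mta1 for H1foo and 98.5% at Mta1 for AE4. Positions moved up or down when only genes of similar length were used. For H1foo, Mta3 went from 81.5% to 93.3%, and Mta2 from 53.3% to 48.5%.

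**Figure D2:**
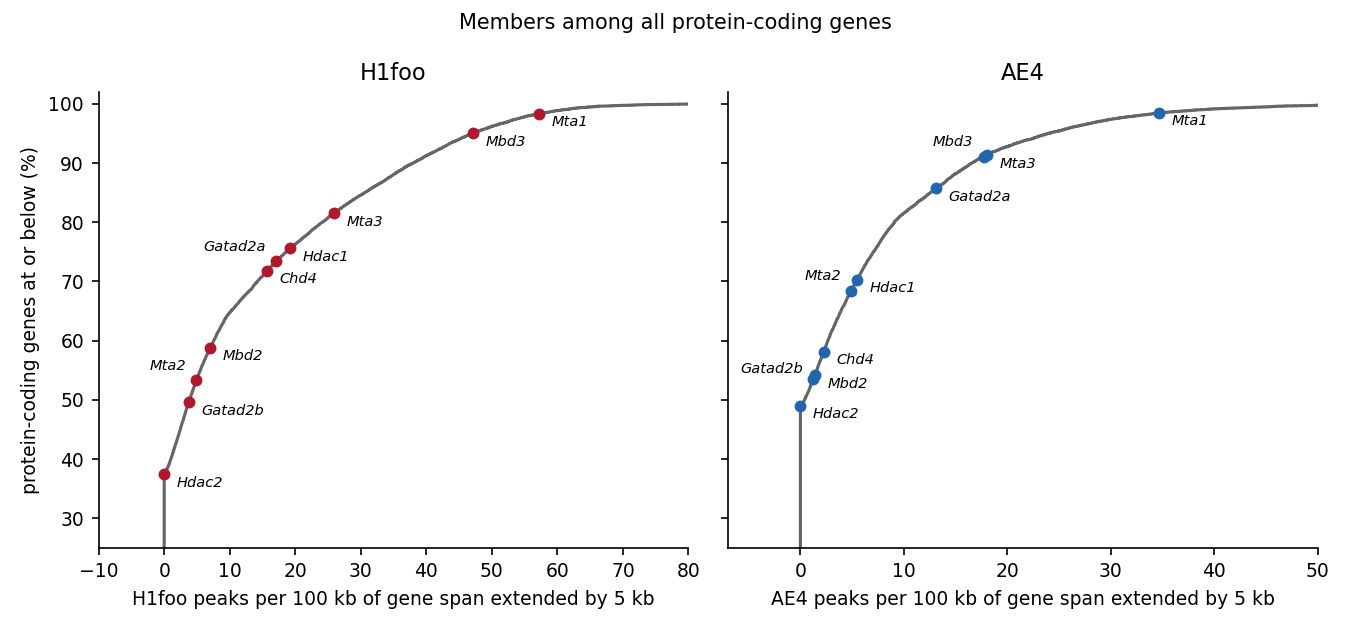
The grey line is the cumulative share of all 21774 protein-coding genes (vertical axis, %) at or below a given peak density (horizontal axis, peaks per 100 kb of gene span extended by 5 kb; the right end of the axis leaves out the densest genes), for H1foo on the left and AE4 on the right. Points mark the members: Mta1 lies near the top of both lines, and Hdac2 sits at 0.

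Start sites are described next. An annotated start was at hand for 7 of the 10 genes, from RefSeq promoter windows on GRCm38.p6 that run from 250 bases before to 50 bases after a start; Mbd2, Hdac1 and Mta3 had no entry. An H1foo peak lay within 2 kb of the start at 4 of those 7 genes: Gatad2a, Mta2, Mbd3 and Mta1. The share among all genes with an annotated start was 32.9%. For AE4 it was Mta1 alone, against 12.0% of all such genes. At Mbd2, Hdac1 and Mta3, where start and end could not be told apart, an H1foo peak lay within 2 kb of either boundary at Hdac1 and Mta3 and an AE4 peak at Hdac1, against 44.9% and 24.1% of all protein-coding genes for the 2 antibodies. No peak of either list covered an annotated start itself at any of the 7 genes. The nearest H1foo peak was 90 bp upstream of the outer Gatad2a start, 795 bp upstream of Mta2, 1407 bp inside Mbd3 and 1635 bp upstream of Mta1. At Chd4 it was 6.99 kb upstream of the first of 2 annotated starts, at Gatad2b 13.5 kb upstream and at Hdac2 23.7 kb upstream.

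The 300 bp promoter window of Gatad2a at the outer start was the only one of the 10 member windows that a peak entered. Among all genes with such a window, 14.4% had an H1foo peak in it and 2.66% an AE4 peak. The sequence is shown because the border of the H1foo peak falls inside it: the peak at chr8:69996474-69997156 covered the 161 bases in capitals, which are the upstream part of chr8:69996335-69996634 on the minus strand (mm10 coordinates, sequence from RefSeq on GRCm38.p6).
Gatad2a: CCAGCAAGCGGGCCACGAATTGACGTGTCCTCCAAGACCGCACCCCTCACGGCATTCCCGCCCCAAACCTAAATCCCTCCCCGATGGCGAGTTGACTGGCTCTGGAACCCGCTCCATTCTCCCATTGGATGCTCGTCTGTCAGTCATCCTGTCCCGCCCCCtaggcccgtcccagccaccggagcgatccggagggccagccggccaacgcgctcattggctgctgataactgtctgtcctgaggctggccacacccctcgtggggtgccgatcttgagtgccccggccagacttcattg

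Another 3 promoters are shown for contrast, all without a peak of either list: that of Mta2, with an H1foo peak upstream, that of Mta1, the gene with the highest peak density, and that of Hdac2, the gene without peaks. They lie at chr19:8941670-8941969, chr12:113098028-113098327 and chr10:36974294-36974593, all on the plus strand, and capitals mark CG dinucleotides.
Mta2: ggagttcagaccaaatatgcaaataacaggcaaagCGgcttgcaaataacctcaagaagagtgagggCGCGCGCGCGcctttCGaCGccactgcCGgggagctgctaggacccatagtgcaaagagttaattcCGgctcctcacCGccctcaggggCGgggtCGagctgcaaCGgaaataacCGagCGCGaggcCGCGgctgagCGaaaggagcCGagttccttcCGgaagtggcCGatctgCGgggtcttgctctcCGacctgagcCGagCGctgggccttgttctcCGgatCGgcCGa
Mta1: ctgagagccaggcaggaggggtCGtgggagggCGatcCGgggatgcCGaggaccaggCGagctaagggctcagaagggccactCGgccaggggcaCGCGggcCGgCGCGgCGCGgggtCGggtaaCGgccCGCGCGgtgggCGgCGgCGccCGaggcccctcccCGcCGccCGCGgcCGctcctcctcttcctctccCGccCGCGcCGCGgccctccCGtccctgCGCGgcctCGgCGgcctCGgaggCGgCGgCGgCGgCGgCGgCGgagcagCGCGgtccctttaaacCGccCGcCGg
Hdac2: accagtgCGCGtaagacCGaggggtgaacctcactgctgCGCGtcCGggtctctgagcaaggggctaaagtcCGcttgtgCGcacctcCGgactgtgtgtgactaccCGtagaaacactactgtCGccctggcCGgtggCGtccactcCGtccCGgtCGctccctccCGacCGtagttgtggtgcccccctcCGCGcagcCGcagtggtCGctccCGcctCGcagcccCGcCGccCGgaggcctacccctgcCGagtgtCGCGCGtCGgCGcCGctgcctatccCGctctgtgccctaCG
The Mta1 window held 50 CG dinucleotides, more than 98.9% of the 21263 promoter windows of protein-coding genes, that of Hdac2 held 36 and that of Mta2 held 30. The outer Gatad2a window held 21, and the median of all windows was 13. The letters GGGCGG on either strand, the core of a GC box, were found in each of the 10 member windows and in 46.2% of all windows. CCAAT on either strand was in 6 member windows and in 38.2% of all windows, and TATAAA on either strand was in 1, that of Mbd3, and in 12.6% of all windows. The 10 member windows belong to 7 genes and those of Chd4 overlap each other, so these counts are not of separate promoters. Mta1 and Hdac2 were picked for the highest and the lowest number of peaks per 100 kb. A relation between the CG count of a promoter and peak density was not tested.

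Chd4, the ATPase that moves nucleosomes within NuRD, spans chr6:125095980-125130591. It had 7 H1foo peaks and 1 AE4 peak. No peak lay in the first 8923 bp of the gene. The highest-scoring H1foo peak, chr6:125104903-125106066 with a score of 158.05, followed next, and the AE4 peak, chr6:125105547-125106025 with a score of 66.7, lay within it. A score here is the value the authors' peak caller gave a peak; it ranks peaks within a list and is not compared between lists. A pair of H1foo peaks of 1170 and 845 bp, with scores of 89.45 and 151.14, lay near the 3′ end. These and the H1foo peak beyond the end of Chd4 were also within 5 kb of Nop2, the neighbouring gene of a nucleolar methyltransferase.

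The deacetylases, which remove acetyl groups from histone lysines, differed in that Hdac1 had peaks and Hdac2 had none. Hdac1 (chr4:129516104-129542646) carried 7 H1foo peaks, 446 to 686 bp wide with scores of 53.54 to 84.63, and 2 AE4 peaks with scores of 52.9 and 56.9. The highest H1foo score at Hdac1 was the lowest such maximum among the 9 genes with H1foo peaks. Both AE4 peaks overlapped an H1foo peak, at chr4:129511499-129512011 and chr4:129517528-129518001. With the gene cut into 5 equal parts by coordinate, parts 3 and 4 held no peak. Of the 7 H1foo peaks, 4 were also within 5 kb of Marcksl1, a neighbouring gene for a substrate of protein kinase C. Hdac2 (chr10:36974297-37001889) was 23.4 kb from the nearest H1foo peak and 56.0 kb from the nearest AE4 peak. Its surroundings were poor in peaks as well, with 5 H1foo and 4 AE4 peaks in the rest of the 1 Mb around it. Of 10679 genes with a window between 0.5 and 2 times as long as that of Hdac2, 30.3% had no H1foo peak and 43.5% had no AE4 peak.

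The paralogues Mbd2 and Mbd3 encode the methyl-CpG-binding domain subunits, which occur in separate NuRD complexes; Mbd2 binds methylated DNA, and mammalian Mbd3 does so poorly. Mbd2 (chr18:70568225-70629134) had 5 H1foo peaks with scores of 51.31, 109.08, 50.34, 59.11 and 53.32 in order along the chromosome, and 1 AE4 peak with a score of 51.0 near its upper end. None of these peaks overlapped a peak of the other list, and only the H1foo peak with a score of 109.08 was above the median score of its list. Few peaks surrounded the gene: Mbd2 had 7.05 H1foo and 1.41 AE4 peaks per 100 kb, against 0.323 of each in the rest of the 1 Mb around it, which held 3 peaks of each list. Mbd3 (chr10:80392539-80399531), the shortest member at 6.99 kb, had 8 H1foo and 3 AE4 peaks. H1foo peaks covered 45.2% of its window and AE4 peaks 7.69%. The highest-scoring H1foo peak, chr10:80391318-80393495 with a score of 487.06 and a width of 2178 bp, lay across the 3′ end of Mbd3 and scored above 99.6% of the H1foo list. A second wide H1foo peak of 1695 bp lay in the body of the gene without an AE4 peak. The highest-scoring AE4 peak, chr10:80404071-80405309 with a score of 258.67, lay 4.54 kb upstream and overlapped the next gene, Uqcr11, a subunit gene of respiratory complex III. As many as 6 of the 8 H1foo peaks were within 5 kb of another gene (Uqcr11, Mex3d or Tcf3), so they cannot be given to Mbd3 alone. The density around Mbd3 was close to that at the gene, with 47.1 H1foo peaks per 100 kb at Mbd3 against 46.1 in the rest of the 1 Mb, and for AE4 17.7 at Mbd3 against 21.9.

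**Figure D3:**
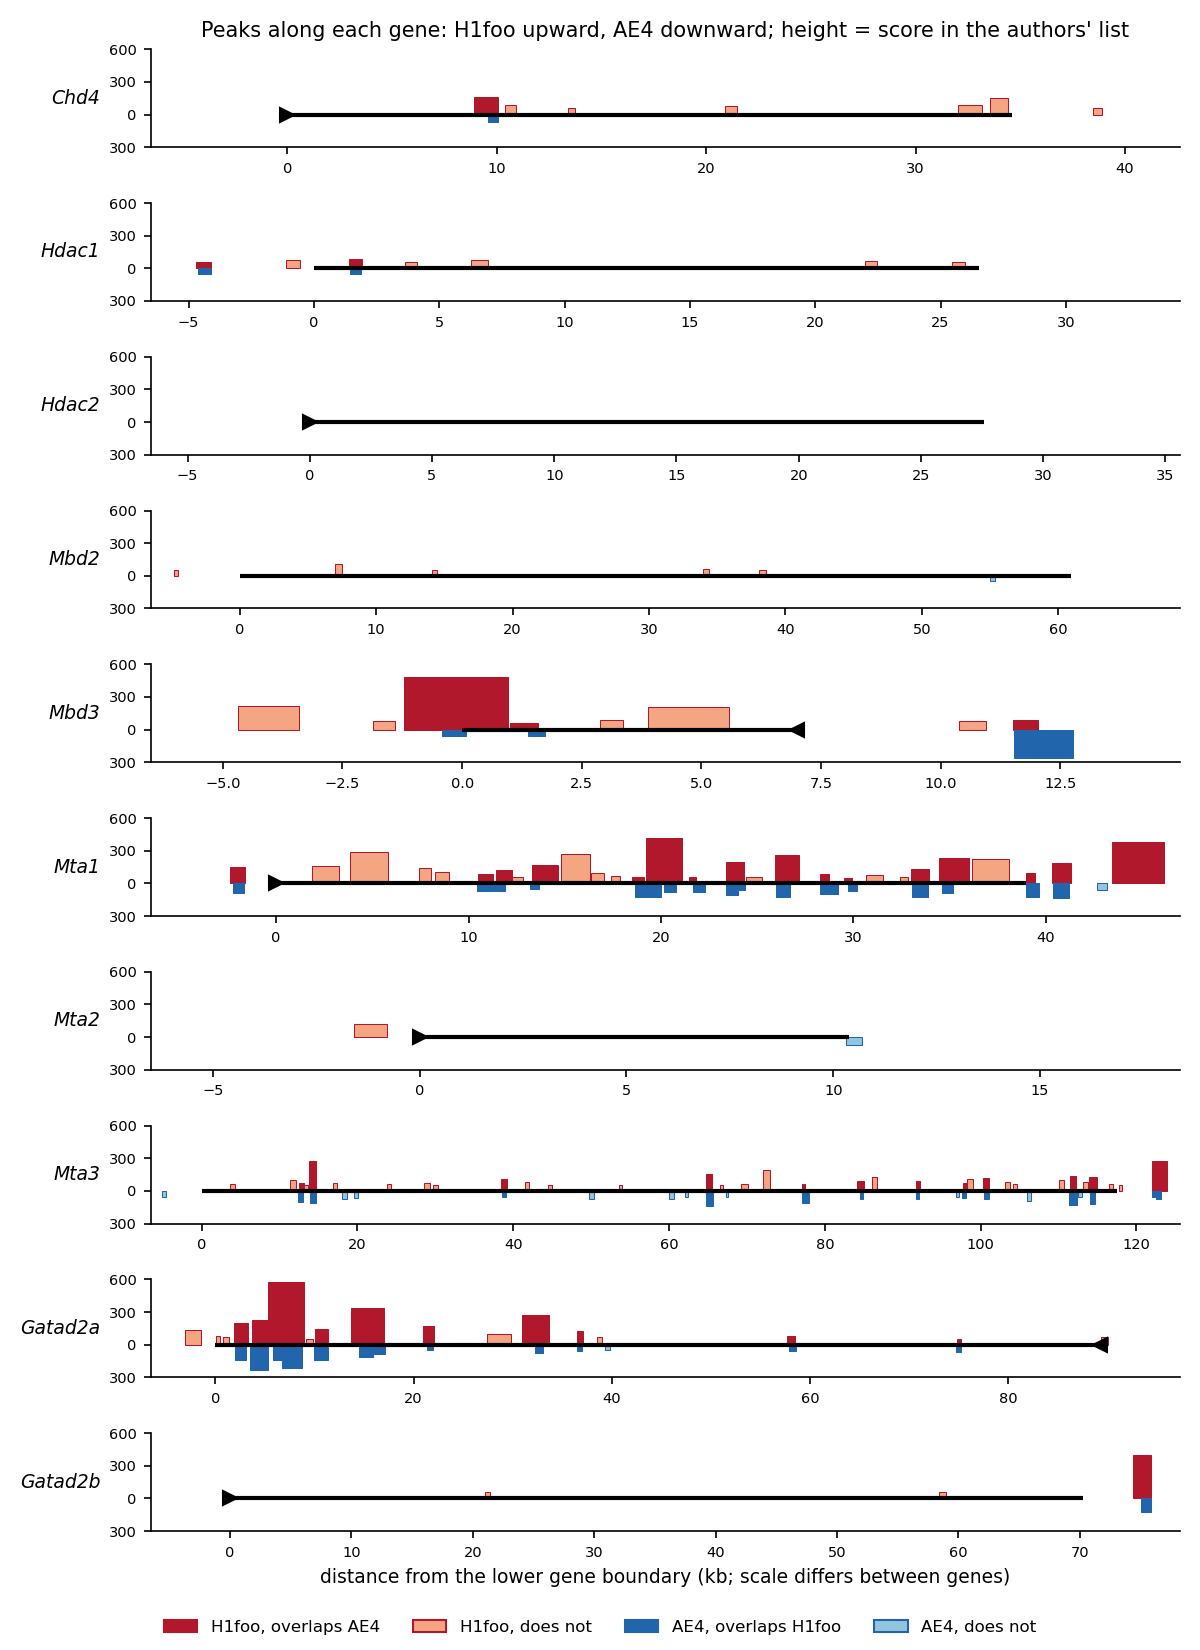
Each panel is 1 gene, drawn as a black line from its lower to its upper boundary (horizontal axis, kb from the lower boundary; the scale differs between panels), with an arrowhead at the start where the strand was at hand. Boxes above the line are H1foo peaks and boxes below it AE4 peaks, as wide as the peak and as high as its score in the authors' list, dark where a peak overlaps the other list. Peaks run along the whole of Mta1 and Mta3, crowd the 3′ part of Gatad2a, and are missing at Hdac2.

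The metastasis-associated genes Mta1, Mta2 and Mta3 encode the scaffold subunits that hold the deacetylases, and their peak counts spread the most. Mta1 (chr12:113098248-113137206) had 28 H1foo and 17 AE4 peaks, which covered 53.3% and 23.6% of its window. Its density exceeded that of 99.1% of genes of similar length for H1foo and of 98.9% for AE4. Cut into 5 equal parts from its start, the gene held 3, 6, 5, 6 and 4 H1foo peaks and 0, 3, 3, 5 and 2 AE4 peaks by peak centre, so that part 1 had H1foo peaks alone. The H1foo peak with the highest score, chr12:113117494-113119357 with 418.73, lay near the middle of the gene and overlapped 2 AE4 peaks. A second one of 378.42 and 2686 bp, beyond the 3′ end, reached into Crip2, the neighbouring gene of a LIM domain protein. Of the 28 H1foo peaks, 16 overlapped an AE4 peak, and of the 17 AE4 peaks 16 overlapped an H1foo peak. Mta1 thus had 57.2 H1foo and 34.7 AE4 peaks per 100 kb, against 26.4 and 13.9 in the rest of the 1 Mb around it.

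Mta3 (chr17:83706163-83823715) is the longest member at 118 kb and had the most peaks, 33 of H1foo and 23 of AE4. By coordinate, its 5 equal parts held 6, 6, 4, 5 and 10 H1foo peaks and 4, 1, 5, 3 and 7 AE4 peaks, so both antibodies had their highest number toward the upper boundary. The median peak width at Mta3 was 625 bp for H1foo and 550 bp for AE4, between the 851.5 and 619 bp at Mta1 and the 560 and 466 bp of the whole lists. The highest H1foo scores were 272.66 at chr17:83828135-83830059, beyond the upper boundary and within 5 kb of Haao, a gene of tryptophan breakdown, and 271.09 at chr17:83719970-83720807 inside Mta3. Overlap with the other list was found for 12 of the 33 H1foo peaks and 13 of the 23 AE4 peaks. The 10 AE4 peaks without an H1foo peak were the larger part of the 14 such peaks at all members. In the whole AE4 list, 23152 of 47449 peaks did not overlap an H1foo peak, so the share of 10 in 23 at Mta3 was no higher. Mta2 (chr19:8941920-8952300) stood at the other end, with 1 H1foo peak upstream of its start, chr19:8940322-8941125 with a score of 118.68 and overlapping the neighbouring gene Eml3, and 1 AE4 peak across its 3′ end, chr19:8952239-8952626 with a score of 68.12 and within 5 kb of Tut1. Neither overlapped the other list, and the body of Mta2 held no H1foo peak.

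Gatad2a and Gatad2b encode the p66 subunits, which link the methyl-CpG-binding subunit to Chd4. Gatad2a (chr8:69907069-69996402) had 17 H1foo and 13 AE4 peaks, and these were gathered at its 3′ end: from the start, 5 equal parts held 1, 1, 2, 3 and 8 H1foo peaks and 1, 1, 2, 2 and 7 AE4 peaks. The H1foo peak chr8:69912430-69916022 had the highest score of the member H1foo peaks, 573.47, above 99.7% of the H1foo list, and with 3593 bp also the greatest width. Within it lay the AE4 peaks chr8:69912882-69913781 and chr8:69913787-69915826, with scores of 138.98 and 212.78. Of the 6 member H1foo peaks with a width of 2 kb or more, 4 were at Gatad2a, and the others were at Mbd3 and Mta1. Overlap joined 10 of the 17 H1foo peaks and 12 of the 13 AE4 peaks. Gatad2a was less dense than its surroundings, with 17.1 H1foo and 13.1 AE4 peaks per 100 kb at the gene against 32.3 and 25.1 in the rest of the 1 Mb. Gatad2b (chr3:90293181-90363405) had 3 H1foo peaks, of which the 2 inside the gene had scores of 58.72 and 58.39. The other, chr3:90367580-90369069 with a score of 403.66, lay 4175 bp beyond the 3′ end and held the sole AE4 peak of this gene, chr3:90368215-90369003 with a score of 123.33. No AE4 peak touched the span of Gatad2b itself.

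**Figure D4:**
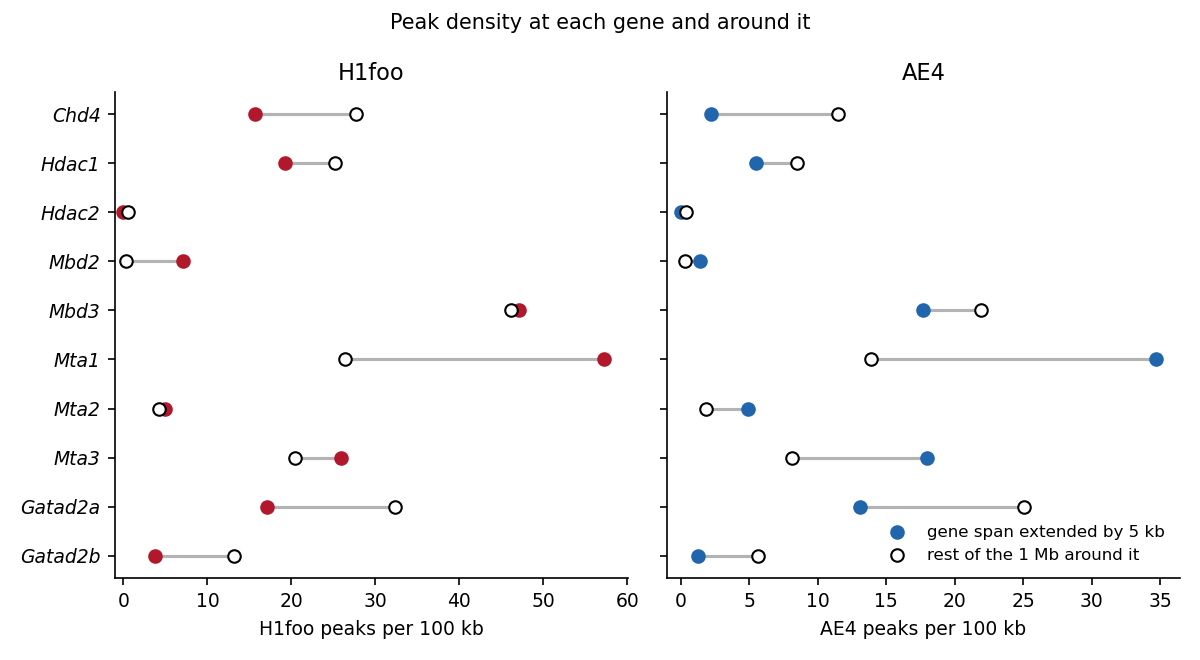
Filled points give the peaks per 100 kb in the span of each gene extended by 5 kb, and open points those in the rest of the 1 Mb around it, for H1foo on the left (red) and AE4 on the right (blue). Mta1 lies well to the right of its surroundings in both panels, and Chd4, Hdac1, Gatad2a and Gatad2b lie to the left of theirs.

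Set against the rest of the 1 Mb around each gene, 5 of the 10 members were denser in H1foo peaks (Mbd2, Mbd3, Mta1, Mta2 and Mta3) and 4 in AE4 peaks (the same without Mbd3). Mbd2 and the metastasis-associated genes were thus above their surroundings for both antibodies, and Chd4, Hdac1, Hdac2, Gatad2a and Gatad2b were below for both. At Mta2 the counts are 1 peak of each list, and at Mbd2 the AE4 count is 1, so the order rests on single peaks there. With scores at or above the list median, Mbd2 kept 1 H1foo and 0 AE4 peaks, so its H1foo density also rests mostly on low-scoring peaks. At Mbd3 the H1foo values were close, with 47.1 per 100 kb at the gene against 46.1 around it. The share of all protein-coding genes that are denser than their surroundings is not given here. The counts of 5 and 4 members are therefore not read as a trait of these genes. H1foo peaks outnumbered AE4 peaks at 8 of the 10 genes, with equal counts at Mta2 and Hdac2. This depends on the longer H1foo list, and the share of all protein-coding genes with more H1foo than AE4 peaks is not given here. With the H1foo list cut to the length of the AE4 list, Mta3 had 19 H1foo and 23 AE4 peaks. Counts were then equal at Gatad2a (13 of each), at Mbd2, Mta2 and Gatad2b (1 of each) and at Hdac2. H1foo peaks stayed more numerous at Mbd3, Chd4, Hdac1 and Mta1. The ratio of H1foo to AE4 peaks was 1.76 over the members and 2.06 over the whole lists, and at the 9 genes with peaks it went from 1 at Mta2, 1.31 at Gatad2a and 1.43 at Mta3 to 5 at Mbd2 and 7 at Chd4.

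Sharing between the lists was examined last. Of the 109 H1foo peaks, 45 or 41.3% overlapped an AE4 peak (Wilson 95% interval 32.5 to 50.7%), where 24.1% of the whole H1foo list did. Of the 62 AE4 peaks, 48 or 77.4% overlapped an H1foo peak (65.6 to 86.0%), where 51.2% of the whole AE4 list did. These intervals treat peaks as independent and cover counting error only; peaks of the same gene are not independent. The H1foo value rested on Mta1, Mta3 and Gatad2a, with 38 of 78 peaks shared: without them it was 7 of 31 or 22.6%. For AE4 the value without them was 7 of 9 or 77.8%. H1foo peaks covered 15.9% of the member windows and 2.41% of the genome, and AE4 peaks 7.06% and 0.947%. The genome includes sequence between genes, and the coverage of the windows of all protein-coding genes is not given here. Where peaks cover more of the sequence, more of them can overlap, and the part of this coverage in the shares was not tested. The share of a list that overlaps the other depends on the lengths of both lists, and with the H1foo list cut to the length of the AE4 list the shares were 50.7% for H1foo and 64.5% for AE4 at the members, and 34.6% and 37.1% over the whole lists. When only the 200 bp around the centres counted, they were 28.4% and 48.4% at the members and 16.2% and 33.4% over the whole lists. This definition of sharing is stricter by construction, so its shares can only be lower than those by any overlap.

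Shared peaks were wider and had higher scores. At the members, shared H1foo peaks had a median width of 836 bp and unshared ones of 570 bp, with median scores of 129.5 and 75.5. Shared AE4 peaks had a median width of 670.5 bp and unshared ones of 489.5 bp, with median scores of 83.7 and 60.8. The whole lists showed the same order, with median widths of 706 and 528 bp for H1foo and 534 and 421 bp for AE4. A wider peak has more bases that can overlap, and the part of width in this order was not tested. Member peaks as such had a median width of 666 bp for H1foo and 583 bp for AE4, against 560 and 466 bp over the whole lists. The H1foo difference and most of the AE4 difference rested on Mta1, Mta3 and Gatad2a. Without them the median width was 532 bp for the remaining 31 H1foo peaks, below the 560 bp of the whole list. For the remaining 9 AE4 peaks it was 479 bp, near the 466 bp of the whole list. Among the 109 H1foo peaks, 26 were in the top 10% of their list by score, and among the 62 AE4 peaks 17 were; at the 7 other genes these were 5 of 31 and 2 of 9.

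**Figure D5:**
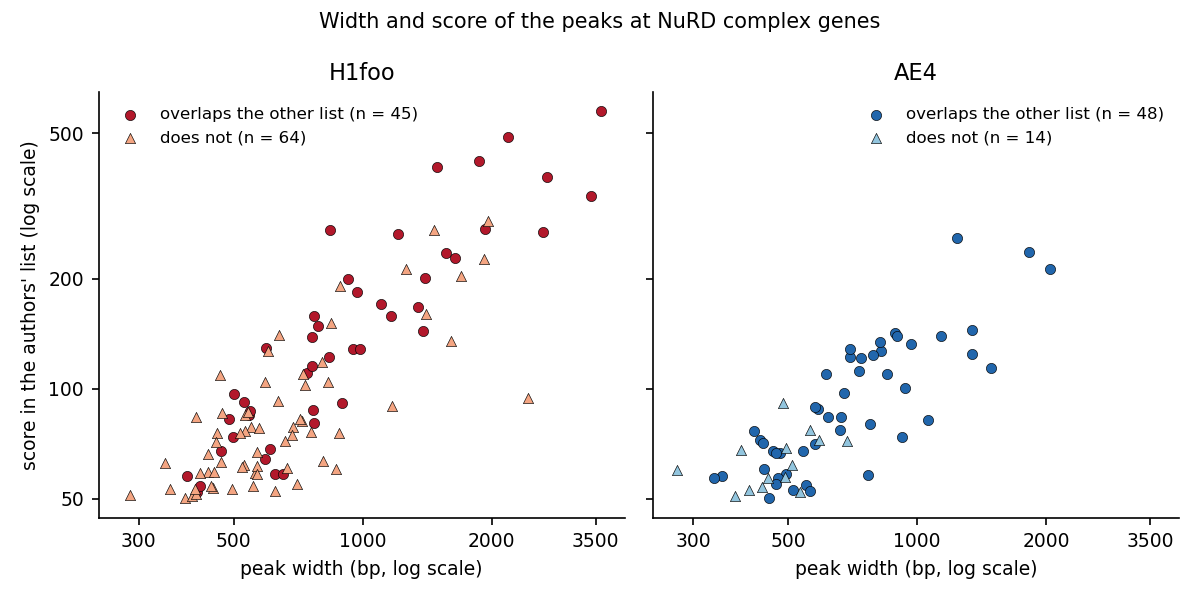
Each point is a peak at a NuRD complex gene, with its width in bp (horizontal axis, log scale) and its score in the authors' list (vertical axis, log scale), for H1foo on the left and AE4 on the right; circles overlap the other list and triangles do not. The 14 unshared AE4 peaks lie at the lower left, and the widest H1foo peak, 3593 bp with a score of 573.47, is shared.

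Other genes of the complex and of related complexes are given as counts. Of 5 further NuRD subunit genes, 3 had an H1foo peak and 2 an AE4 peak, against 62.6% and 51.0% of all protein-coding genes. Chd5, a paralogue of Chd4 known from neurons, had 36 H1foo and 16 AE4 peaks, or 58.5 and 26.0 per 100 kb. Chd3, the other paralogue, had 8 and 3, and Cdk2ap1, which encodes a small subunit, had 4 H1foo peaks and no AE4 peak. The histone-binding subunit genes Rbbp4 on chromosome 4 and Rbbp7 on chromosome X had none.

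All 7 genes of NuRD partners (Sall1, Sall4, Zfp296, Kdm1a, Zmynd8, Pwwp2a and Pwwp2b) had peaks of both antibodies, and the densest in H1foo was Zmynd8, a reader of acetylated histones, with 60 H1foo and 16 AE4 peaks. The Sin3 complex, which carries the same deacetylases, had H1foo peaks at 9 and AE4 peaks at 4 of its 12 genes, with Brms1 the densest in H1foo at 53.9 per 100 kb and without an AE4 peak. CoREST genes had both at 6 of 6, and Hmg20b led with 60.4 H1foo peaks per 100 kb. Kdm1a is counted in both the partner and the CoREST list. Genes of Polycomb repressive complex 2, another repressor that acts on histones, had H1foo peaks at 8 and AE4 peaks at 7 of 10. Among all protein-coding genes, 62.6% had an H1foo peak, 51.0% an AE4 peak and 46.8% both, with median densities of 3.88 and 0.403 per 100 kb. Median densities were 16.4 H1foo and 5.19 AE4 peaks per 100 kb for the 10 members, against 20.8 and 0 for the further NuRD subunits, 20.9 and 11.1 for the NuRD partners, 11.2 and 4.52 for CoREST, 8.76 and 1.74 for Polycomb repressive complex 2 and 5.96 and 0 for Sin3. These lists are short and no difference between them was tested, so these counts are not used to set any list apart.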

How the data were processed

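ChIP-seq was performed with 2 libraries for each of 2 antibodies. Reads were aligned with Bowtie 1.1.2 to mm10, per the submitters' processing notes, and MACS was the peak caller, per the file headers; its version is not given there. For each antibody the authors deposited a single peak list with a score per peak, whose scale is not named. The sources used here do not say how libraries were combined or whether an input control was used. The H1foo list held 97825 peaks and the AE4 list 47493, of which 97795 and 47449 lay on assembled chromosomes and were used.

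Starts were converted to positions counted from 1. Gene spans were those of RefSeq on GRCm38.p6, which shares its chromosome coordinates with mm10. Overlaps were computed in Python 3.11.15 with pandas 2.3.3 and numpy 2.4.6, and the overlap code was checked against bedtools on simulated intervals. Peaks named are those with the highest score or greatest width at each member, or nearest to a start, and others that illustrate a count. The members and gene lists were chosen with earlier results of these data known, and 1 further short gene list is not reported here. Alternatives changed the flank, the assignment of peaks, the score minimum, the list length and the definition of a shared peak.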

Additional observations from a re-analysis of the deposited data

How the results depend on the processing

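Counts of members with peaks kept within 1.5 times under every alternative flank, score minimum and list length tried: 8 to 9 genes for H1foo, 7 to 9 for AE4 and 7 to 9 for both. From 9 of 10 genes as reported, these counts could not have risen by 1.5 times. For these counts and those at starts, the shares of all protein-coding genes are not given at the alternative settings. Whether the members kept their standing among all genes is therefore not shown. Members with an H1foo peak at the start or, where no start was given, at either boundary numbered 6 as reported and 4 to 7 under the alternatives. The number of H1foo peaks at members, 109 as reported, was 72 with scores at or above the list median, 71 with lists of equal length and 31 without Mta1, Mta3 and Gatad2a, an alternative added after the data were seen. AE4 peaks, 62 as reported, were 9 without those genes. The share of H1foo peaks overlapping AE4, 41.3% as reported, was 50.7% with lists of equal length, 28.4% when the 200 bp around the centres had to overlap and 22.6% without those genes; the AE4 share, 77.4% as reported, was 64.5% and 48.4% in the first and second of these. Members with an AE4 peak at the start or, where no start was given, at either boundary numbered 2 as reported, 1 with scores at or above the median, 0 within 1 kb and 4 within 5 kb. By construction, other numbers of peaks or genes or another window enter these. No paired analysis was possible because the lists hold no value per library, and leaving out a library was not possible for the same reason. Depth is unknown, so a gene without peaks is not shown to be unbound.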
